A study of Mus musculus with 12 samples.

Results

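The AP-1 and immediate early genes described here are 10 mouse genes: Fos, Fosb, Fosl2, Jun, Junb, Jund, Atf3, Ier2, Ier3 and Plaur. They were found by their names on 12 one-colour Agilent arrays, where they have 14 of 41174 probes, and 9 of them are among the 15061 genes that could be tested. The array names Jund by its older symbol, so it was matched through its transcript identifier. All cells were PUER cells, a mouse myeloid line that lacks PU.1 and carries it fused to the estrogen receptor, so that the ligand 4-hydroxytamoxifen (4-OHT) switches PU.1 activity on and the cells mature. They grew with IL-3, were infected with a retrovirus and were sorted for its GFP marker. The 4 groups, with 3 arrays each (replicates A, B and C), were shRNA cells with a hairpin against Hnrnpa0 after 24 h in 2 nM 4-OHT, shRNA cells before 4-OHT, control-vector cells after the same 24 h, and control-vector cells before 4-OHT. The design text gives separate clones for the replicates of each vector, run in parallel. The labels name 1 hairpin construct and no array of cells kept in vehicle.

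AP-1 is a dimer of bZIP transcription factors, one from the Jun family and one from the Fos, Jun or ATF family, that binds the sequence TGANTCA. Many of its genes are immediate early genes: growth factors and stress switch them on within minutes through MAP kinases, without new protein, and AU-rich elements in their messages cause rapid decay. hnRNP A0, the protein of the gene targeted by the hairpin, is known to bind such AU-rich elements.

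The promoter windows of 6 genes are shown because they hold matches to sequences that AP-1 and ATF proteins are known to bind. In the RefSeq table of GRCm38.p6, 9 of the 10 genes had a promoter entry, and the 250 bases before the start were searched on both strands. The cyclic AMP response element half-site TGACG is bound by ATF and AP-1 proteins. It was found for 4 of these 9 genes (Fos, Fosb, Junb and Atf3), against 17.8% of the 32851 windows in the table. In that order, G and C made up 58.4%, 68.8%, 66.4% and 65.2% of these 4 windows, against a median of 52.4% over all windows. The part of base composition in these matches was not tested. The AP-1 site TGANTCA was found for Plaur and in 6.75% of all windows, and the related octamer TGACNTCA for Jun and in 7.49%. In the sequences below, which show the windows of these 6 genes 5′ to 3′ along the gene, capitals mark those matches.
Fos, chr12:85473640-85473889, plus strand: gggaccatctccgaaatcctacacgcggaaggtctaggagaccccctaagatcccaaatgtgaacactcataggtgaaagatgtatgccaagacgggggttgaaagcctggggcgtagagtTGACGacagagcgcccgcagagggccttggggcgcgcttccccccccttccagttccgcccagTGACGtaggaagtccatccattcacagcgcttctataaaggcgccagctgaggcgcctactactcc
Fosb, chr7:19310046-19310295, minus strand: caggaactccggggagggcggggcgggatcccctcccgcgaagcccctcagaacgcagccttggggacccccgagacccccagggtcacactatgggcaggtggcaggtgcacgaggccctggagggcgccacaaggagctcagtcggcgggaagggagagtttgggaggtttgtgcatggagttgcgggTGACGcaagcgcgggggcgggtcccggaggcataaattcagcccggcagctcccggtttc
Junb, chr8:84978749-84978998, minus strand: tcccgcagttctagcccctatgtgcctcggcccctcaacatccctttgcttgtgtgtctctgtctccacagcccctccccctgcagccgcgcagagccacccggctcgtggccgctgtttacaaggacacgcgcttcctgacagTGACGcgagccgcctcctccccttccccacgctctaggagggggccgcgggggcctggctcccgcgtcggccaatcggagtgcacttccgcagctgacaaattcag
Atf3, chr1:191183334-191183583, minus strand: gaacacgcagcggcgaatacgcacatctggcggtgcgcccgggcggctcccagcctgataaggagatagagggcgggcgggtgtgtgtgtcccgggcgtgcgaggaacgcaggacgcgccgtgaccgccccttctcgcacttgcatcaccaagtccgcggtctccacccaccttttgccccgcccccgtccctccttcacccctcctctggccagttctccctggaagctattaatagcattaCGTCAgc
Jun, chr4:95052223-95052472, minus strand: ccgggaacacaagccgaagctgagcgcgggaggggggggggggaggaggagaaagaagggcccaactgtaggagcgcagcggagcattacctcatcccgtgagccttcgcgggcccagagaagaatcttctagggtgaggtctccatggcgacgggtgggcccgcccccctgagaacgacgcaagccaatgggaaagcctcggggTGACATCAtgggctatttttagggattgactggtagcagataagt
Plaur, chr7:24462233-24462482, plus strand: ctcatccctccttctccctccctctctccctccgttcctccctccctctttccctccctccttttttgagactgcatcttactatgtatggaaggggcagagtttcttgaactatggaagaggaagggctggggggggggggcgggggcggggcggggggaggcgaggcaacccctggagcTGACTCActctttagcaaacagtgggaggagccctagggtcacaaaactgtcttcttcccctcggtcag
The 2 half-sites of Fos begin 129 and 66 bases before the start, and that of Fosb 60 bases before it. In Jun the octamer match begins 45 bases before the start, and the Plaur match begins 69 bases before it. The palindromic element TGACGTCA, which contains the half-site, was in none of the 9 windows and in 1.55% of all windows. None of the 9 windows held a CArG box, the binding site of the serum response factor (1.47% of all windows). Sequence more than 250 bases before the start was not searched. The core GAGGAA of sites for PU.1, the factor that 4-OHT activates here, was in the windows of Atf3, Ier3 and Plaur and in 23.3% of all windows. A match is a stretch of letters, and binding was not measured.

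The probes themselves, 60 bases long and placed by the array design on build mm7, were searched for a pentamer. Whether a match lies in a working AU-rich element was not tested. The pentamer ATTTA, the core of AU-rich elements, was in 2 of the 14 probes of these genes and in 9.16% of all probes on the array. It occurred in the Ier3 probe and in the Jun probe, of which the 28 bases around it are shown with the pentamers in capitals.
Ier3 probe, chr17:33924245-33924304: cacagatATTTAttacgATTTAtagggt
Jun probe, chr4:94441779-94441838: atcataggaaagATTTAgtaattagctg

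Each value below is a level: the log2 of the spot intensity relative to the 75th percentile of its array, so that 0 is that percentile. The percentile lay between 1196 and 2583 intensity units, and between 50.3% and 55.66% of the spots were well above background. A gene was called where limma's adjusted p (Benjamini-Hochberg over the 15061 genes) was under 0.05. Its p rests on the spread between arrays of a group, pooled over the 4 groups. That spread holds differences between clones and, in groups that span slides, between slides. Hnrnpa0 was at 23.3% of its control level in shRNA cells after 4-OHT (log2 difference -2.10, adjusted p = 0.00511) and at 34.3% before it (-1.54, adjusted p = 0.0127). The call before 4-OHT was lost without shRNA replicate B (-1.58, adjusted p = 0.0541) or without control replicate B or C (-1.54 and -1.58, adjusted p = 0.0627 and 0.0686). The arrays lay on 3 slides. After 4-OHT, all shRNA arrays were on slide 3, control replicate A was on slide 1, and control replicates B and C shared slide 2. Before 4-OHT, shRNA replicates A and B were on slide 2, shRNA replicate C on slide 3 and all control arrays on slide 1. No slide held both vectors in the same treatment. Markers of monocytes and macrophages rose for 9 of 10 genes tested in either vector, while their summed relative intensity ranged from 54.3 to 73.2 in shRNA cells after 4-OHT and from 41.7 to 49.9 before it, and from 68.6 to 85.3 in control cells after 4-OHT and from 44.9 to 58.8 before it. Neutrophil granulocyte markers ranged in sum from 93.7 to 121 in shRNA cells after 4-OHT and from 184 to 211 before it, with 3 of 11 rising and 6 falling. The part of this maturation in the changes below was not tested, and in whole-culture RNA fewer cells with a transcript and less of it per cell cannot be told apart.

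After 24 h of 4-OHT most of the 10 genes were lower, in both vectors. In shRNA cells 8 of the 9 tested genes fell and none rose, where 38.3% of all genes were called and 21.8% were called lower. The arrays after 4-OHT did not overlap those before it for 8 of the 9, against 51.5% of all genes. In control cells 8 fell and 1, Jun, rose, where 40.5% of all genes were called, 23% of all genes as lower and 17.5% as higher. There the groups did not overlap for any of the 9, against 51% of all genes. The median log2 difference was -1.67 over the 9 genes in shRNA cells, against -0.08 over all genes tested, and -1.63 in control cells, against -0.07. The 2 comparisons share no array. The 9 genes were chosen with earlier results of these data known, so their shares and medians beside those of all genes are a description and no test. All 9 tested genes were well above background on every array that gave a value, and none of their spots were saturated.

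**Figure D1:**
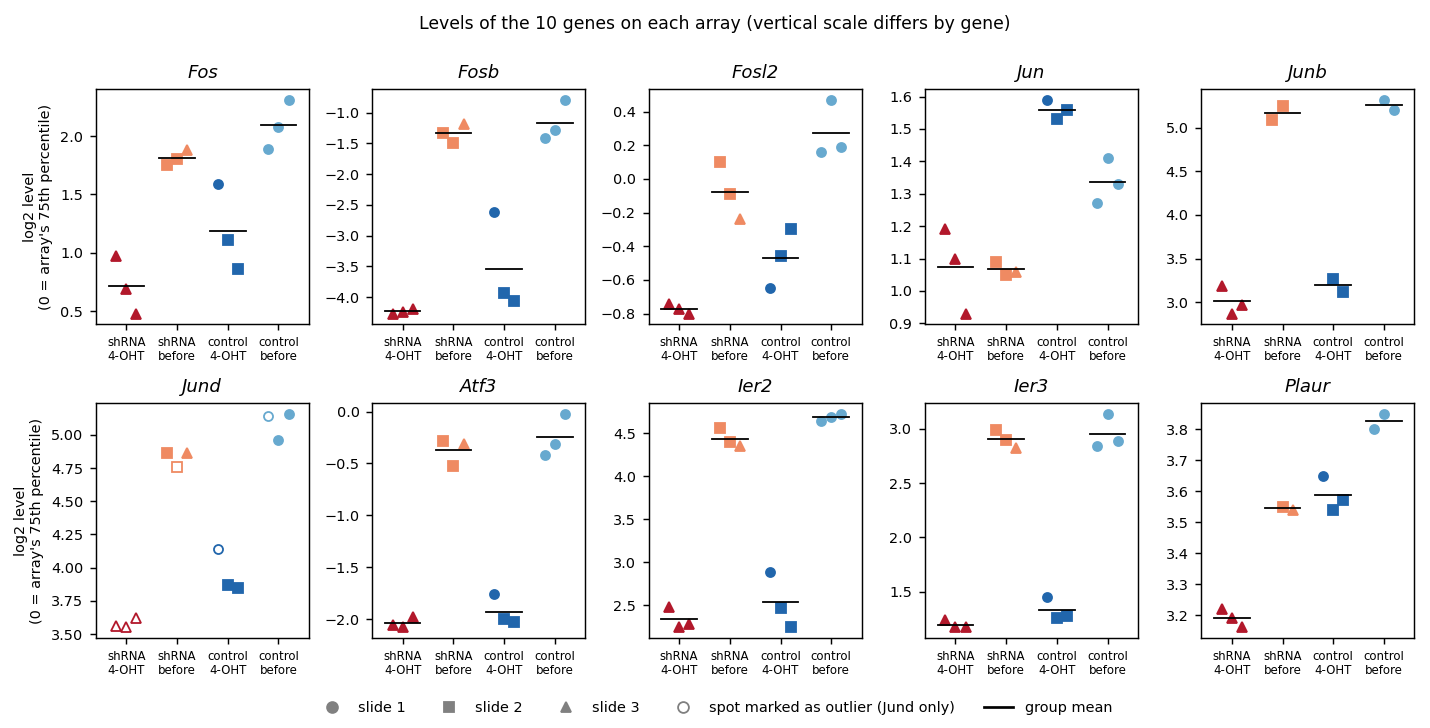
Level of each gene on each array (log2 of intensity relative to the array's 75th percentile), by group, with the slide as the symbol and the group mean as a line. Except for Jun, the arrays after 4-OHT lie below those before it in the same vector. For Jund, open symbols are spots marked as outliers and no mean is drawn.

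The Fos family supplies the partners that bind DNA with Jun proteins, and Fosb, its member with a long and a truncated splice form, had the lowest differences as reported. Fosb had levels of -4.27, -4.24 and -4.19 in shRNA cells after 4-OHT, against -1.33, -1.50 and -1.18 before it. In control cells the levels were -2.61, -3.94 and -4.07 after 4-OHT, against -1.42, -1.28 and -0.79 before it. The shRNA arrays after 4-OHT lie close together, whereas control replicate A after 4-OHT stands above the other two of its group. Fosb fell by 2.90 on the log2 scale in shRNA cells (SE 0.32, adjusted p = 4.64e-05), to 13.4% of the level before, and fell by 2.38 in control cells (SE 0.32, adjusted p = 0.000176), to 19.2%. Within slide 1 the control difference, of replicate A alone against the 3 arrays before, was -1.45 (adjusted p = 0.00121), and without replicate A it was -2.84 (adjusted p = 1.48e-06). With the normexp background the Fosb differences were -2.11 in shRNA cells and -1.48 in control cells, and those of Junb were lower (-2.20 and -2.14).

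Fos itself, the first immediate early transcription factor to appear after most stimuli, moved less. Its levels were 0.97, 0.69 and 0.48 in shRNA cells after 4-OHT, against 1.75, 1.80 and 1.88 before it. In control cells Fos had 1.59, 1.11 and 0.86 after 4-OHT, against 1.89, 2.08 and 2.31 before it. The groups do not overlap in either vector, and the arrays after 4-OHT spread more widely than the arrays before it. Fos fell by 1.10 in shRNA cells (SE 0.19, adjusted p = 0.000858) and fell by 0.91 in control cells (SE 0.19, adjusted p = 0.00267). Its probe is printed 10 times on each array, and the SD over 9 or 10 spots of Fos or Jun on an array lay between 0.03 and 0.08, below the SD between arrays of Fos after 4-OHT (0.24 in shRNA cells and 0.37 in control cells, n = 3 each). Within slide 1 the control fall was -0.50 and was not called (adjusted p = 0.0999), and within slide 3 the shRNA difference, of the 3 arrays after 4-OHT against replicate C alone before it, was -1.17 (adjusted p = 0.00401). A lone array on a slide is assumed to vary like the arrays of the other groups.

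Fosl2 encodes Fra-2, a Fos protein without the strong activation domain of c-Fos. In shRNA cells its levels were -0.74, -0.77 and -0.80 after 4-OHT, against 0.10, -0.09 and -0.24 before it. In control cells they were -0.65, -0.46 and -0.30 after 4-OHT, against 0.16, 0.47 and 0.19 before it. Here control replicate A after 4-OHT was the lowest of its group, the reverse of its place for Fosb and Fos. Fosl2 fell by 0.69 in shRNA cells (SE 0.12, adjusted p = 0.000868) and fell by 0.74 in control cells (SE 0.12, adjusted p = 0.000491). A second, dimmer probe gave -0.64 and -0.55 in shRNA and control cells.

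The Jun family did not move as one. Junb, which encodes a Jun protein with weaker activation than c-Jun, had levels of 3.19, 2.87 and 2.97 in shRNA cells after 4-OHT and 5.09 and 5.25 before it. In control cells it had 3.27 and 3.12 after 4-OHT and 5.32 and 5.20 before it. About 2 log2 units separate the arrays after 4-OHT from those before it in both vectors. Junb fell by 2.16 in shRNA cells (SE 0.12, adjusted p = 5.28e-06) and fell by 2.07 in control cells (SE 0.13, adjusted p = 9.82e-06). The fit leaves out shRNA replicate C before 4-OHT and control replicate A at both times, whose spots were marked as outliers, so no difference within a slide could be fitted. A second probe with values on all 12 arrays, which shares 22 positions with the first, gave -1.81 and -1.74 in shRNA and control cells.

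Jun, which encodes c-Jun, was the exception among the genes tested. Its levels were 1.19, 1.10 and 0.93 in shRNA cells after 4-OHT, against 1.09, 1.05 and 1.06 before it. In control cells Jun had 1.59, 1.53 and 1.56 after 4-OHT, against 1.27, 1.41 and 1.33 before it. The shRNA groups overlap, and the control arrays after 4-OHT all lie above those before it. The difference was 0.01 in shRNA cells (95% interval -0.16 to 0.17, adjusted p = 0.95), and Jun rose by 0.23 in control cells (SE 0.07, adjusted p = 0.0314). That rise, a 1.17-fold difference, was not called within slide 1 (0.26, adjusted p = 0.0917). It was also lost without control replicate A, B or C after 4-OHT (0.21, 0.24 and 0.23, adjusted p = 0.0651, 0.061 and 0.0692) and without control replicate A or C before it (0.19 and 0.22, adjusted p = 0.108 and 0.081). Of 24 alternatives in all, 10 lost the call, the normexp background among them (0.21, adjusted p = 0.109). Slide as a fixed block and the difference within slide, both among the 10, had the same values.

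Jund encodes the Jun protein that is usually present in resting cells. Its single probe was not tested because the scanner software marked its spot as an outlier on the 3 shRNA arrays after 4-OHT and on 1 array of each other group. With the marked spots kept, an alternative chosen after the data were seen, the levels were 3.56, 3.55 and 3.62 in shRNA cells after 4-OHT, against 4.86, 4.76 and 4.86 before it. In control cells they were 4.14, 3.87 and 3.85 after 4-OHT, against 5.14, 4.96 and 5.16 before it, with the spots of replicates B and C before 4-OHT saturated. On these values Jund fell by 1.25 in shRNA cells (SE 0.09, adjusted p = 1.47e-06). The control difference was -1.13, and because of the saturated spots it is only a lower bound on the size of the fall. The arrays after 4-OHT thus lie below those before it for Jund as for Junb, and not for Jun.

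Atf3 encodes a bZIP protein of the ATF family that is induced by stress and often acts as a repressor. It had levels of -2.06, -2.08 and -1.98 in shRNA cells after 4-OHT, against -0.28, -0.52 and -0.31 before it. In control cells Atf3 had -1.76, -2.00 and -2.03 after 4-OHT, against -0.42, -0.31 and -0.02 before it. The groups are far apart in both vectors. It fell by 1.67 in shRNA cells (SE 0.12, adjusted p = 1.24e-06) and fell by 1.68 in control cells (SE 0.12, adjusted p = 1.01e-06), to 31.5% and 31.2% of the level before.

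The 2 IER genes encode proteins that are not bZIP factors: Ier2 a nuclear protein, and Ier3 a regulator of apoptosis and NF-kappaB signalling. Ier2 had levels of 2.48, 2.24 and 2.28 in shRNA cells after 4-OHT, against 4.56, 4.40 and 4.35 before it. In control cells it had 2.89, 2.47 and 2.24 after 4-OHT, against 4.64, 4.69 and 4.73 before it. Ier2 fell by 2.10 in shRNA cells (SE 0.14, adjusted p = 1.17e-06) and fell by 2.15 in control cells (SE 0.14, adjusted p = 8.18e-07), and its dimmer second probe gave -2.29 and -2.38. The 2 vectors thus ended at close levels, with control replicate A the highest of the arrays after 4-OHT. Ier3, whose probe carries the 2 pentamers shown above, had 1.24, 1.17 and 1.17 in shRNA cells after 4-OHT, against 2.99, 2.90 and 2.82 before it. Its levels in control cells were 1.45, 1.26 and 1.28 after 4-OHT, against 2.84, 3.14 and 2.89 before it. Ier3 fell by 1.71 in shRNA cells (SE 0.09, adjusted p = 1.78e-07) and fell by 1.63 in control cells (SE 0.09, adjusted p = 2.08e-07), which left 30.5% and 32.4% of the level before.

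Plaur encodes the receptor that holds urokinase on the cell surface and is known in human cells as a target of AP-1. Its changes were small. The levels were 3.22, 3.19 and 3.16 in shRNA cells after 4-OHT and 3.55 and 3.54 before it. In control cells they were 3.65, 3.54 and 3.57 after 4-OHT and 3.80 and 3.85 before it. The groups do not overlap in either vector. Plaur fell by 0.35 in shRNA cells (SE 0.07, adjusted p = 0.0034) and fell by 0.24 in control cells (SE 0.07, adjusted p = 0.0221), in a fit without shRNA replicate A and control replicate C before 4-OHT, whose spots were marked. A second probe, with values on all 12 arrays, gave -0.50 and -0.27 in shRNA and control cells. Without shRNA replicate B or C before 4-OHT the tested probe had too few values. The second probe, used in its place, gave -0.55 and -0.57 (adjusted p = 0.00355 and 0.00156). The control difference within slide 1, where replicate A alone came after 4-OHT, was -0.17. The control fall was not called with quantile normalization (-0.15, adjusted p = 0.0884) or without control replicate B or C after 4-OHT (-0.21 and -0.23, adjusted p = 0.0799 and 0.0583). Without control replicate A or B before 4-OHT the second probe was again used (-0.26 and -0.29, adjusted p = 0.103 and 0.0788, not called). In all, 10 of 24 alternatives lost the call. Both slide as a fixed block and the difference within slide, which had the same values, were among the 10.

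**Figure D2:**
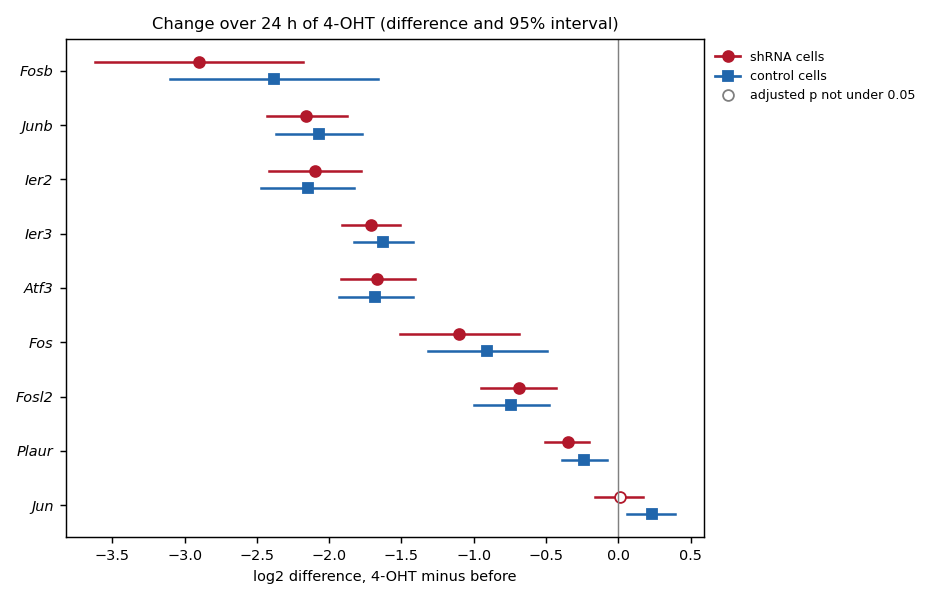
Log2 difference between arrays after and before 4-OHT for the 9 genes tested, in shRNA cells (circles) and control cells (squares), with 95% intervals. Fosb has the lowest of the values plotted in both vectors (-2.90 and -2.38), and only Jun has values at or above 0 (0.01 and 0.23).

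Control replicate A after 4-OHT had the highest level of its group for most genes. Of the 8 genes with values on all 3 arrays of that group, 7 had their highest value in replicate A, Jun among them, and 1, Fosl2, its lowest. Of the 7 that fell, 6 had their highest value there. The same count was not made over all genes, so the pattern cannot be called particular to these genes. Replicate A lay on slide 1 and replicates B and C on slide 2, and the part of the slide was not tested apart from that of the clone. With slide as a fixed block, which here reduces to the differences within slides 3 and 1, 7 of 8 genes that could be fitted fell in shRNA cells and 5 of 8 in control cells (Fosb, Fosl2, Atf3, Ier2 and Ier3). In that fit 17.5% of all genes were called lower in shRNA cells and 19.1% in control cells. Each of these differences rests on 1 array on one side, shRNA replicate C before 4-OHT on slide 3 and control replicate A after 4-OHT on slide 1.

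The 2 vectors were next compared within each treatment, which asks whether lower Hnrnpa0 RNA went along with different levels of these genes. The hnRNP A0 protein and the decay of messages were not measured. After 4-OHT, Jun and Plaur were lower in shRNA than in control cells, 2 of the 9 genes tested, and none was higher, where 8.82% of all genes were called lower, 7.85% higher and 16.7% in either direction. Jun averaged 1.07 ± 0.13 in shRNA cells and 1.56 ± 0.03 in control cells (SD, n = 3 each), a log2 difference of -0.49 (SE 0.07, adjusted p = 0.00971). Plaur averaged 3.19 ± 0.03 in shRNA cells and 3.59 ± 0.06 in control cells (SD, n = 3 each), a difference of -0.40 (SE 0.06, adjusted p = 0.0126), and its second probe gave -0.39. For both genes every shRNA array lay below every control array. No shRNA and control array shared a slide after 4-OHT: with slide as a random block the differences were -0.49 and -0.39 and were not called (adjusted p = 0.101 and 0.117), and with slide as a fixed block they were -0.47 and -0.34 (adjusted p = 0.687 and 0.693). The fixed block links the vectors only through slide 2, which held shRNA arrays before 4-OHT and control arrays after it. Apart from that indirect link, vector and slide cannot be told apart with these arrays.

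The other 7 genes were not called between the vectors after 4-OHT. All 9 differences were below 0, as were 55.2% of those over all genes, and their median was -0.30. With slide as a fixed block Ier2 (0.11) and Ier3 (0.05) were above 0. The groups did not overlap for 5 of the 9, against 38.6% of all genes. Fosb had the lowest value, -0.69 (95% interval -1.41 to 0.03, adjusted p = 0.158), and with the normexp background it was -0.72 and was called (adjusted p = 0.0354). Without control replicate A after 4-OHT the Fosb difference was -0.23 (adjusted p = 0.379). Fos had -0.48 (95% interval -0.89 to -0.06, adjusted p = 0.101), with -0.64 (adjusted p = 0.0436) without control replicate C after 4-OHT and -0.27 (adjusted p = 0.269) without replicate A. The differences of Fosl2, Ier2, Junb, Ier3 and Atf3 lay between -0.30 and -0.11. Jund, with marked spots kept, had -0.38 (SE 0.09, adjusted p = 0.0228).

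Before 4-OHT none of the 9 genes was called between the vectors, and 0.378% of all genes were. At an unadjusted p under 0.05 there were 3 of the 9, Jun, Plaur and Fosl2, where 22.3% of all genes passed it. Jun averaged 1.07 ± 0.02 in shRNA cells and 1.34 ± 0.07 in control cells (SD, n = 3 each), a difference of -0.27 (95% interval -0.43 to -0.11, adjusted p = 0.096). Plaur had -0.28 (95% interval -0.45 to -0.11, adjusted p = 0.101), but -0.17 with the mean of its probes. Its second probe gave -0.17 on all arrays. That probe took the place of the first, which had too few values, without shRNA replicate B or C (-0.11 and -0.10) or control replicate A or B (-0.16 and -0.18). Fosl2 had -0.35 (95% interval -0.61 to -0.09, adjusted p = 0.134), and -0.20 with the mean of its probes. Ier3 was the nearest to 0, with -0.05 (95% interval -0.25 to 0.15, adjusted p = 0.76). All 9 differences were below 0 and their median was -0.25. With slide as a fixed block, however, Fos, Fosb, Atf3, Ier2 and Ier3 had values above 0, between 0.11 and 1.14, and none was called.

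**Figure D3:**
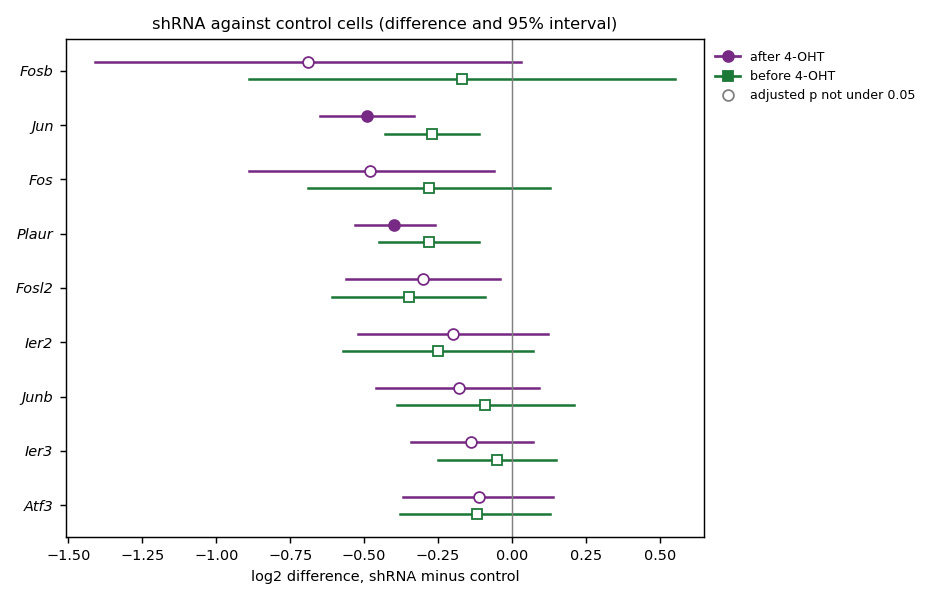
Log2 difference between shRNA and control cells for the 9 genes tested, after 4-OHT (circles) and before it (squares), with 95% intervals. Filled symbols, which are Jun and Plaur after 4-OHT, have adjusted p under 0.05.

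Whether the hairpin altered the response to 4-OHT was tested as the difference between the 2 responses, shRNA minus control. None of the 9 genes was called by limma, and neither was any of the 15061 genes (0% called, and 791 genes at an unadjusted p under 0.05, none of them among the 9). Jun had -0.22 (95% interval -0.45 to 0.01, adjusted p = 0.942), so the rise of Jun in control cells is not shown to be missing from shRNA cells. Fosb had -0.52 (95% interval -1.54 to 0.50, adjusted p = 0.957) and Fos -0.19 (95% interval -0.78 to 0.39, adjusted p = 0.957). Without control replicate A after 4-OHT they were -0.06 and 0.01 (adjusted p = 0.973 and 0.995). The narrowest interval among the large falls was that of Ier3, from -0.37 to 0.20.

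Genes around these 10 were taken from lists of their pathway, chosen with earlier results of these data known, and they moved in both directions. Beside the counts of each list below, 16.5% of all genes were called higher and 21.8% lower in shRNA cells. In control cells these shares were 17.5% and 23%. Of 17 other AP-1 and bZIP partner genes tested, 3 rose and 6 fell in shRNA cells, and 3 rose and 5 fell in control cells, with medians of -0.10 and -0.01. Maff, a small Maf protein that pairs with bZIP factors, fell by 2.28 in shRNA cells (adjusted p = 4.25e-07) and fell by 2.03 in control cells (adjusted p = 8.52e-07). Fosl1, which encodes the Fos protein Fra-1, fell in shRNA and control cells (-1.65 and -1.75, adjusted p = 4.53e-06 and 2.46e-06). Batf, a bZIP factor of lymphoid and myeloid cells that pairs with Jun proteins, rose by 1.09 and 1.32 (adjusted p = 5.63e-06 and 1.13e-06). Batf3, its relative known from dendritic cells, rose by 0.78 and 1.04 (adjusted p = 0.00103 and 0.000129).

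Other immediate early genes also rose or fell. Among 39 tested, 5 rose and 15 fell in shRNA cells and 7 rose and 15 fell in control cells, with medians of -0.29 and -0.19. Dusp2, a MAP kinase phosphatase, fell in shRNA and control cells (-1.80 and -1.88, adjusted p = 8.73e-07 and 5.14e-07), as did Rhob, a small GTPase (-1.66 and -1.90, adjusted p = 1.25e-07 and 3.92e-08). Against these, Nr4a1, an orphan nuclear receptor, rose by 2.47 and 2.93 (adjusted p = 4.73e-08 and 1.09e-08). Egr2, a zinc-finger factor of macrophage maturation, rose by 2.42 and 2.82 (adjusted p = 4.55e-06 and 1.2e-06). After 4-OHT 1 of the 39 was higher in shRNA than in control cells, Noct (0.77, adjusted p = 0.0156), and 8 were lower. Of all genes, 7.85% were called higher and 8.82% lower in this comparison. Vector and slide cannot be told apart in it except through the indirect link of slide 2. Among the 8 were Egr2 (-1.03, adjusted p = 0.0158), the phosphatase gene Dusp1 (-0.64, adjusted p = 0.014) and Ier5 (-0.54, adjusted p = 0.0126).

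The kinases and factors upstream of these promoters moved in both directions. Of 33 tested, 10 rose and 10 fell in shRNA cells and 9 rose and 10 fell in control cells. Map3k1, a kinase upstream of JNK, fell in shRNA and control cells (-1.25 and -1.16, adjusted p = 2.58e-06 and 3.98e-06), and Mef2d, a factor that binds the Jun promoter, fell likewise (-1.04 and -1.23, adjusted p = 4.58e-06 and 1.05e-06). Rps6ka5, a nuclear kinase that acts at immediate early genes, rose by 1.12 and 0.96 (adjusted p = 5.1e-06 and 1.41e-05). The 10 heat shock genes tested, which respond to handling stress, were not called in either response (medians -0.11 and -0.10), and 0 were called between the vectors.

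Genes of the urokinase receptor system included several with larger changes than Plaur. Of 17 genes tested, 6 rose and 6 fell in shRNA cells and 6 rose and 5 fell in control cells. Plau, urokinase itself, fell in shRNA and control cells (-1.95 and -1.86, adjusted p = 2.45e-07 and 2.73e-07). The formyl peptide receptor gene Fpr2, not well above background before 4-OHT, rose at least 19.1-fold in shRNA cells and at least 13.2-fold in control cells (adjusted p = 1.68e-07 and 1.72e-07). Each such bound uses the lowest signal well above background on an array.

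Genes often reported as AP-1 targets rose more often than they fell. Of 23 tested, 10 rose and 5 fell in shRNA cells and 12 rose and 4 fell in control cells, with medians of 0.05 and 0.43. Of all genes, 16.5% rose and 21.8% fell in shRNA cells, and 17.5% rose and 23% fell in control cells. Mmp9, the gelatinase of macrophages and granulocytes, had levels of 1.99 in shRNA cells after 4-OHT and -4.60 before it, a rise of 6.58 (adjusted p = 3.52e-08), and rose by 6.85 in control cells (adjusted p = 1.99e-08). Before 4-OHT its probe was well above background on 2 of 3 shRNA arrays and 1 of 3 control arrays. The collagenase gene Mmp13 fell in shRNA and control cells (-1.76 and -0.88, adjusted p = 0.000108 and 0.00905), with 1 of the 3 shRNA arrays after 4-OHT well above background. Between the vectors after 4-OHT none of the 23 was higher and 5 were lower, where 7.85% of all genes were called higher and 8.82% lower. Except through the indirect link of slide 2, vector and slide cannot be told apart here. Among the 5 were Il1b (-0.72, adjusted p = 0.0197), Mmp12 (-0.67, adjusted p = 0.0143) and Nqo1 (-0.63, adjusted p = 0.0167). The Il1b probe was well above background on 1 of the 3 shRNA arrays after 4-OHT.

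**Figure D4:**
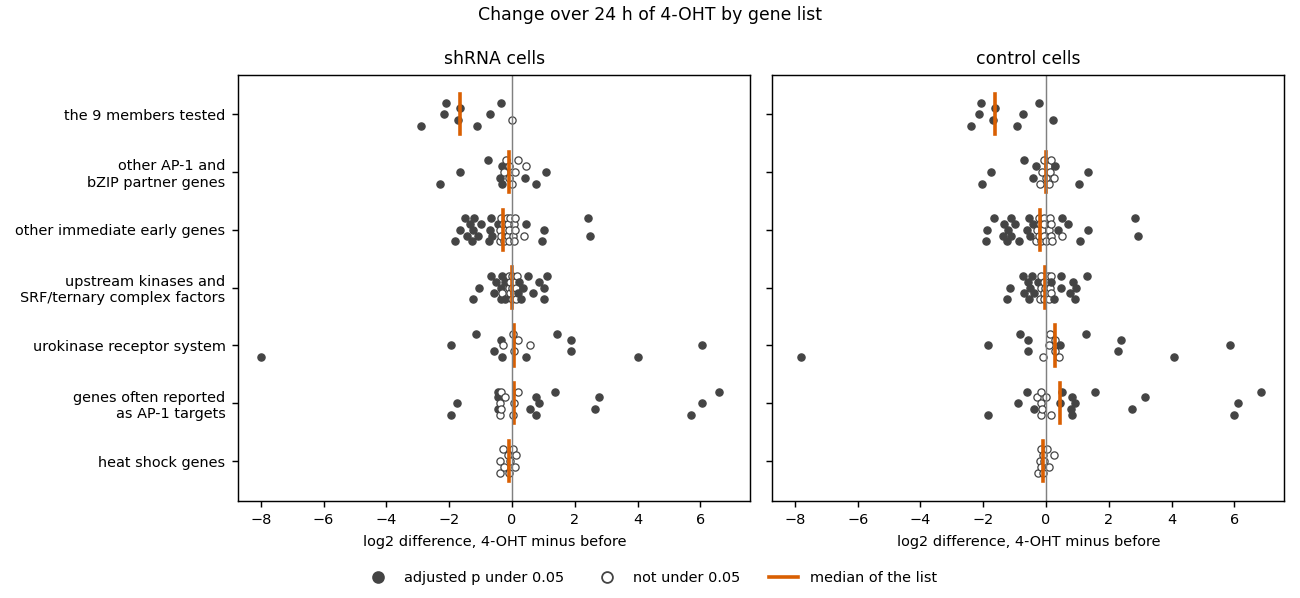
Log2 difference between arrays after and before 4-OHT for each tested gene of the members and of 6 related lists, in shRNA cells (left) and control cells (right), with the median of each list as a bar. The members have medians of -1.67 and -1.63, and the medians of the other lists lie between -0.29 and 0.43. Members and lists were chosen with earlier results of these data known, so the distance between their medians is no test.

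Over the 12 arrays the levels of most falling genes followed each other, as a description that the 4-OHT groups dominate. Pearson r was 0.99 between Ier2 and Ier3, 0.98 between Fosb and Atf3, and 0.84 between Fosb and Fosl2. It was lower for Plaur with Atf3 (0.68), Ier3 (0.70) and Ier2 (0.72). With group means subtracted, r was -0.59 between Fosb and Fosl2 and 0.56 between Ier2 and Ier3. In levels Jun stood apart, with r between -0.20 and 0.14 with the other tested members except Plaur, for which it was 0.57. With group means subtracted, r of Jun lay between 0.07 (Atf3) and 0.69 (Plaur), with 0.58 for both Fos and Ier3. The genes outside the 10 with the pattern most like Jun were Camk2g (r 0.958) and Cldn34c1 (r 0.955). For Fos they were Trmt2b (0.987) and Dusp1 (0.983), and for Fosb Pmvk (0.995) and Cinp (0.986). Junb was like St3gal6 (0.997) over 9 arrays, Atf3 like Stc2 (0.994), and Fosl2 like Tbl1x and Baz2b (0.982 each). Ier2 was most like Plpp5 and Mrap (0.998 each), Ier3 like Stard4 and Myom3 (0.996 each), and Plaur like Ak1 (0.979) and Mib1 (0.975) over 10 arrays.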

How the data were processed

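The authors read 12 one-colour arrays (design 014868) with Agilent Feature Extraction 9.5.3.1, per the file headers (9.5 in the submitters' processing notes). What the authors deposited is the linear Cy3 intensity of each spot, background-subtracted and unscaled between arrays, with a summary table that differs from it by at most 0.497%. Spots marked as outliers and control spots were left out, spots of a probe averaged, and the log2 intensity of the array's 75th percentile subtracted. Each gene was tested on its brightest probe if well above background on at least 3 arrays and present on at least 2 per group, which left 15061 genes. limma 3.58.1 (R 4.3.3, version 1.17.8 of the data.table package) gave 5 contrasts of the 4 group means from 1 fit of the 12 arrays, with an adjusted p threshold of 0.05. The fit was tested on simulated data. Slides came from the headers.

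Alternatives were normexp background (offset 50), quantile normalization, the deposited summary values, other filters (none, or 6 arrays), the mean of a gene's probes, slide or replicate as a block, the groups of each comparison alone, each array left out, and marked outliers kept. Members and lists were chosen with earlier results of these data known. Of the lists, the 3 largest called rises and falls per contrast could be named, with 2 genes most like each member. Some of these genes are not reported here. Markers of mast cells and basophils (0 rose and 5 fell of 7 in shRNA cells, 0 and 4 in control cells) were tested too. Those of T cells (0 and 2 of 4 in shRNA cells), B cells (1 and 0 of 2) and fibroblasts (0 of 1) were mostly not well above background. Promoter sequences came from RefSeq (GRCm38.p6). Figures used Python 3.11.15 and matplotlib 3.10.9. Array number limits the precision.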

Additional observations from a re-analysis of the deposited data

How the results depend on the processing

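With 12 arrays, small differences were not resolved. Of the 9 genes tested in the shRNA response to 4-OHT, 7 to 8 were called under the other settings and 8 without any 1 array; with marked spots kept, which adds Jund, it was 9 of 10. In control cells the count was 9 of 9 as reported and 7 to 9 without any 1 array. With slide as a fixed block it was 5 of 8, since Junb could not be fitted. The differences within slide had the same values as that fit. With marked spots kept the count in control cells was 10 of 10. Between the vectors after 4-OHT the count was 0 with slide as a fixed block, 0 with slide as a random block (consensus correlation 0.38), and 2 to 3 without any 1 array, against 2 as reported. It was 0 before 4-OHT and 0 for the difference between responses under every setting run. No called difference of a member changed sign. Among all genes, counts between the vectors moved most, between 0 and 3044 after 4-OHT and between 0 and 525 before it (2512 and 57 as reported); for the responses they lay between 4134 and 6423 in shRNA cells and between 4324 and 6451 in control cells. Before 4-OHT the count was 192 with the replicate block. Same-letter arrays correlated with r of -0.09 to 0.30 in their deviations from group means, and the letters were not taken as pairs. Arrays of different letters were not compared in this way, so these r have no reference to be judged by. With the replicate block 8 members were called in shRNA cells, 8 in control cells (Plaur lost, -0.23, adjusted p = 0.0502), 2 and 0 between the vectors after and before 4-OHT, and 0 for the difference between responses. Hnrnpa0 stayed below control under every setting, between -2.15 and -1.38 after 4-OHT and between -1.76 and -1.30 before it, but was not called with slide as a random block (adjusted p = 0.0523 after 4-OHT and 0.0935 before it) or a fixed one (0.153 and 0.117), nor before 4-OHT with only the groups of the comparison (-1.54, adjusted p = 0.137). The cause of these differences was not tested.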
